A study of Mus musculus with 6 samples.

Results

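Glucocorticoid response genes are genes whose transcription follows glucocorticoid hormones in many tissues. A fixed list of 32 of them was followed in haematopoietic stem cells (HSCs), the bone marrow cells from which all blood lineages arise. Each of the 32 genes had a row of its own on the array, among 22180 genes that did. HSCs were sorted from steady state bone marrow as cells without lineage markers, with Sca1 and cKit on the surface and without Flt3. Of the 6 arrays, 3 were from wild type C57Bl/6 cells, labelled WT, and 3 from Chrm1-/- cells of strain C57Bl/6. The labels give no age, sex or pooling of mice and no treatment other than steady state, and they do not say where or when Chrm1 was deleted. Chrm1 encodes muscarinic acetylcholine receptor type 1, and the series title places this receptor in the central nervous system and names a glucocorticoid-mediated relay in the mobilization of HSCs. The comparison therefore bears on whether genes of the hormone response differ at rest between HSCs of both genotypes.

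Glucocorticoids such as corticosterone enter the cell and bind the glucocorticoid receptor, which chaperones hold ready in the cytoplasm. The bound receptor moves to the nucleus, where it docks on glucocorticoid response elements, inverted repeats of a short hexamer, and raises or lowers transcription nearby. The best known of the induced genes restrain the response itself, slow growth and shift fuel use, and in blood cells they dampen inflammation and alter survival and trafficking.

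The short motif searched was AGAACA, called a hexamer here, on both strands, and the full element was the palindrome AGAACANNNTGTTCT, whose arms are themselves hexamers. RefSeq promoter windows of GRCm38.p6, from 250 bases before to 50 after an annotated start, were found for 28 of the 32 genes, in 39 windows, since some genes have several starts. Zbtb16, Cebpd, Angptl4 and Tgm2 had none in that table. The hexamer occurred in 8 of the 39 windows, 20.5%, and in 19.0% of all 32851 windows. Counted by gene the order turned, with 5 of 28 genes, 17.9%, against 21.3% of all genes in the table. A palindrome with up to 2 mismatches occurred in 4 of the 39 windows, 10.3%, and in 1.84% of all windows; the 4 windows belong to Sgk1 and Fam107a, and those of Fam107a overlap almost fully. By gene that is 2 of 28, 7.14%, against 2.1% of all genes. A perfect palindrome was present in 3 of all windows, 1 of them at Sgk1. These matches are letters in a window and were not measured as bound sites. Below are the Sgk1 window with the perfect match, the Fam107a window with 2 mismatches, the Tsc22d3 window with a hexamer, and the window of Anxa1, 1 of the genes whose arrays separated by genotype. Capitals mark hexamers and, for Fam107a, the arms of the imperfect palindrome too. Sgk1 lies on the plus strand at chr10:21993640-21993939, and the others on the minus strand, Fam107a at chr14:8309730-8310029, Tsc22d3 at chrX:140600473-140600772 and Anxa1 at chr19:20390622-20390921.
Sgk1: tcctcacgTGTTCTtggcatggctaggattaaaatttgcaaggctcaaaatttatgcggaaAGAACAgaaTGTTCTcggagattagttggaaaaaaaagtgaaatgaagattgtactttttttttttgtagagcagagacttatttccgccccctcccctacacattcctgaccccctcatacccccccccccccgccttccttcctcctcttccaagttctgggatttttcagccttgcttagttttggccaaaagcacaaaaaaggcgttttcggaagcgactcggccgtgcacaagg
Fam107a: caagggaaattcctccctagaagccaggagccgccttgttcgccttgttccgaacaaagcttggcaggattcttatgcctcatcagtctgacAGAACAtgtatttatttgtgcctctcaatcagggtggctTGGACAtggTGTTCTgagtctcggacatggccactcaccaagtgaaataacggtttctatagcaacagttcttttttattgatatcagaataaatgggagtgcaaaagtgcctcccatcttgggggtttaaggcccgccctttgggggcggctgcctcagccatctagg
Tsc22d3: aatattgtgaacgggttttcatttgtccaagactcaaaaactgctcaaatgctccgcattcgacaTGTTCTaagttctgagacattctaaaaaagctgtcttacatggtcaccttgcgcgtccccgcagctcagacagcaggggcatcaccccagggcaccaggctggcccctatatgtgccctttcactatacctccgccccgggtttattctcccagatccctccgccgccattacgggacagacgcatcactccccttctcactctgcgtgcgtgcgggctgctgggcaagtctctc
Anxa1: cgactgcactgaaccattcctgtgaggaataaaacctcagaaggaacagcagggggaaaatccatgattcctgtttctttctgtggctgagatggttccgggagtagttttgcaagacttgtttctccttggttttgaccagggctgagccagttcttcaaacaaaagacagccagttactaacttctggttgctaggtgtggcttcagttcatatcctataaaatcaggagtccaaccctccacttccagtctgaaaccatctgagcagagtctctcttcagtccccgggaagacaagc

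In the Sgk1 window the palindrome ran from base -189 to base -175, counted from the annotated start. The closest palindrome in another Sgk1 window had 2 mismatches. In Mt1, Txnip, Map3k6, Errfi1 and Bcl6 the closest window had 3 mismatches, a distance reached in 14.5% of all windows. They are shown side by side, with capitals at the bases that match an arm of the palindrome.
Sgk1: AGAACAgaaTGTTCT
Sgk1, other start: AGAAgAttcTGaTCT
Fam107a: tGgACAtggTGTTCT
Mt1: gGgACAtgaTGTTCc
Txnip: AGcACAccgTGTcCa
Map3k6: gGcACAggcTGTTCc
Errfi1: AaAACtcggTGTcCT
Bcl6: gGAAaAgggTGcTCT
None of these genes passed the test between genotypes, in limma over all genes tested; the test covered Mt1, Txnip and Map3k6, while Sgk1, Fam107a, Errfi1 and Bcl6 lay below the signal needed for it.

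Signals are on a log2 scale, and the medians of the 6 arrays lay between 6.49 and 6.57. Kit, which the sort selected for, averaged 10.90 ± 0.05 in wild type and 10.88 ± 0.10 in Chrm1-/- (SD, n = 3 each). Chrm1 itself was 0.23 higher on the log2 scale in Chrm1-/-, at means of 7.75 and 7.52, and its other cluster differed by -0.04, but the sources used here do not say whether its probes lie in the deleted part, so it checks nothing. Wild type replicate 2 stood apart in the heat-inducible chaperone genes Hspa1a, at 8.72 against 4.85 to 5.25 on the other arrays, and Hspa1b, at 11.11 against 5.35 to 5.91. These are near-identical copies whose probes can share signal. For some of the results that move without this array, the value without it is given too. The test took the 11094 genes whose average over the arrays reached 6.77, the median over genes, and 17 of the 32 glucocorticoid response genes were among them. The median standard error of their differences was 0.16, against 0.17 for all genes tested. Arrdc2, with a mean of 6.76, lay just under that limit and Map3k6, at 6.84, just above it. The labels do not say whether the replicates are separate mice, so each p reflects no more than the scatter among these arrays, which may be technical.

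**Figure D1:**
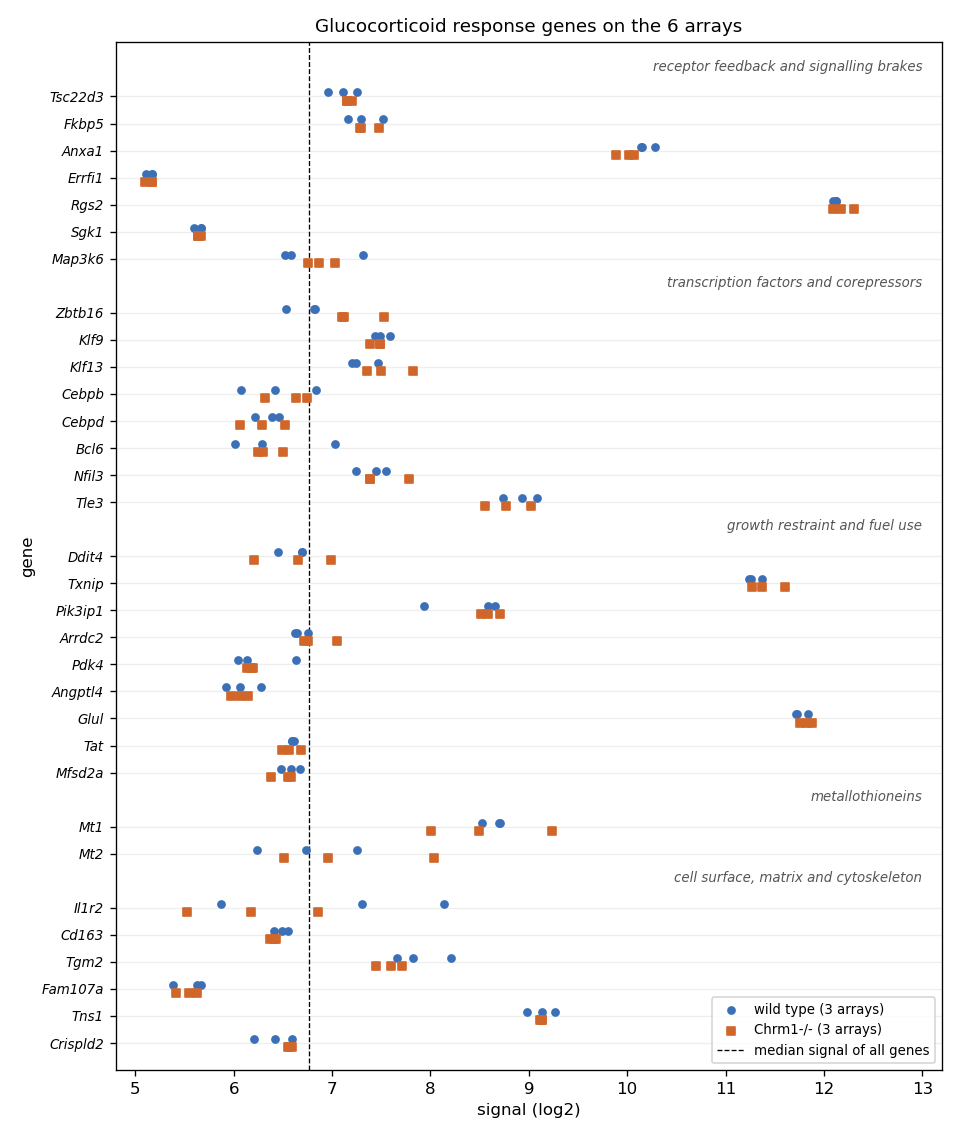
Log2 signal (horizontal axis) of the 32 glucocorticoid response genes (vertical axis, grouped by role) on the 3 wild type arrays (circles) and 3 Chrm1-/- arrays (squares); the dashed line is the median signal of all genes, 6.77. The squares lie apart from the circles only for Zbtb16 and Anxa1, and Il1r2, Mt2 and Mt1 have the widest spreads.

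As a group the genes showed small differences, between -0.31 and 0.52 where tested. After adjustment in limma 0 of the 17 tested genes passed 0.05, as did 0 of all 11094 genes. One of the 17, Zbtb16, had an unadjusted p under 0.05. That is 5.88% of the tested members, where 2.99% of all tested genes were called at that threshold, 1.4% as higher and 1.6% as lower, and 2.56% of all genes without the signal limit. Zbtb16 reached the signal limit only through its Chrm1-/- values, so nothing is read from the 5.88%. Of the 17, 11 were higher, 5 lower and 1 equal in Chrm1-/-, where 5458 of all tested genes were higher, 5381 lower and 255 equal. The median log2 difference of the 17 was 0.06, beside a median of 0.00 over all tested genes. Without wild type replicate 1 that median was -0.01. Over all 32 genes the median was 0.00, with 15 higher, 14 lower and 3 equal. The groups did not overlap for 2 of the 17, Zbtb16 and Anxa1, beside 5.79% of all tested genes, 2.81% as higher and 2.97% as lower. As Zbtb16 is among the 17 only through its Chrm1-/- values, nothing is read from this count. The groups overlapped for each of the 15 others, where 5.39% of all genes on the array did not. The count among the tested members was 4 without wild type replicate 1 and 5 without wild type replicate 3 or without Chrm1-/- replicate 1, but leaving out 1 array also raised it over all genes, from 642 to between 1458 and 1961. The mean of the 17 genes was 8.51, 8.57 and 8.55 on the wild type arrays and 8.64, 8.59 and 8.62 on the Chrm1-/- arrays. These did not overlap, by a gap under the larger SD of a group, 0.03. Of the 17, Zbtb16 and Mt2 reached the signal limit only through Chrm1-/-. Their means were 6.73 and 6.74 in wild type, under the limit, and 7.25 and 7.17 in Chrm1-/-. Their differences, 0.52 and 0.43, were the largest rises of the 17. The mean without these genes was not tested, so nothing is read from this separation. The mean of all 32 overlapped, at 7.44, 7.47 and 7.56 in wild type and 7.48, 7.51 and 7.5 in Chrm1-/-. In bulk RNA, fewer cells that express a gene and less of its RNA per cell cannot be told apart.

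**Figure D2:**
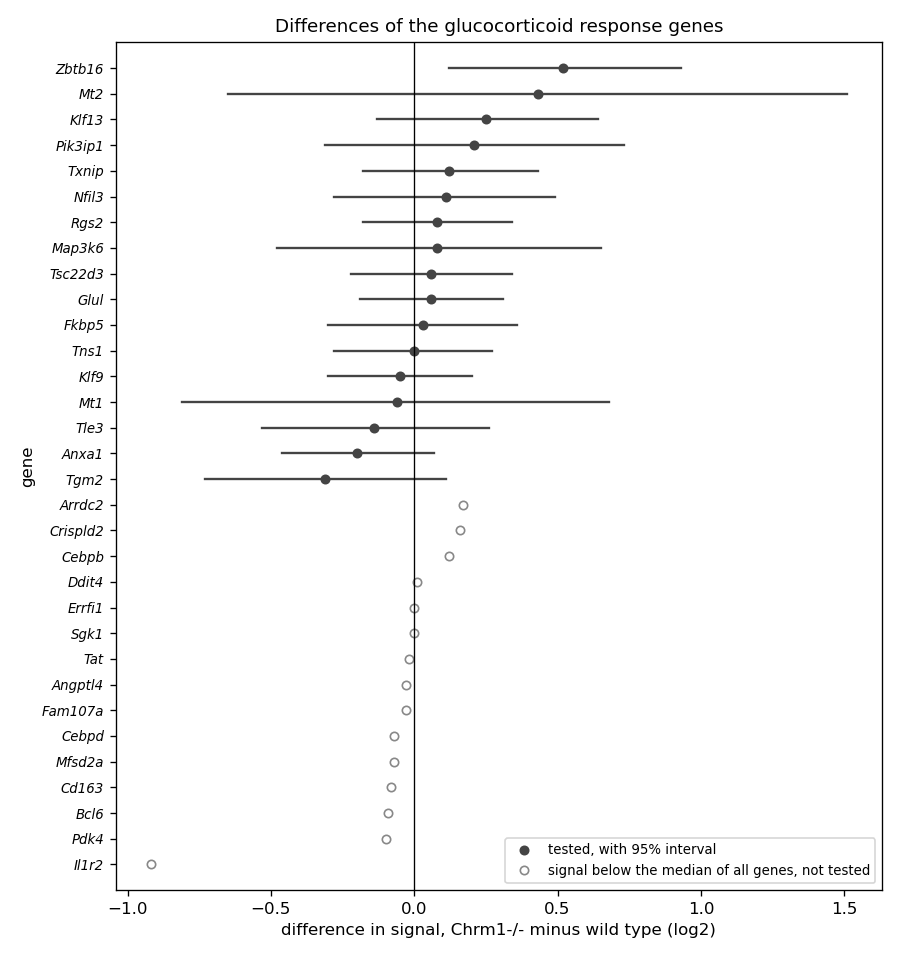
Difference in log2 signal, Chrm1-/- minus wild type, for the 32 genes; filled points are the 17 tested genes with the 95% interval from limma and open points the 15 genes below the signal limit, which have no interval. Zbtb16 is the one gene whose interval, 0.12 to 0.93, lies to one side of 0. Zbtb16 reached the signal limit only through its Chrm1-/- values.

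Among the genes that feed back on the receptor or on signalling, Tsc22d3 encodes the leucine zipper protein GILZ, an anti-inflammatory mediator of the hormone and 1 of its most widely shared targets. Tsc22d3 had signals of 6.96, 7.11 and 7.25 on the wild type arrays and 7.15, 7.15 and 7.20 on the Chrm1-/- arrays. The Chrm1-/- values fell inside the wild type range. The log2 difference was 0.06 ± 0.12 (SE) with a 95% interval from -0.22 to 0.34, so that in limma a rise of over 1.27-fold or a level under 0.859 of wild type lies outside it.

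Fkbp5 encodes a co-chaperone that lowers the receptor's affinity for hormone and is induced by it. Its signals were 7.16, 7.52 and 7.29 in wild type and 7.48, 7.28 and 7.29 in Chrm1-/-. The arrays of both genotypes interleaved, and the difference of 0.03 had an interval from -0.30 to 0.36. Its sign turned to -0.03 with array weights and to -0.05 without wild type replicate 1. Sgk1, a kinase named for its induction by serum and glucocorticoids and the gene with the perfect element shown above, had signals of 5.60, 5.67 and 5.67 in wild type and 5.64, 5.64 and 5.67 in Chrm1-/-. All 6 values lay within 0.07 of each other and below the limit for testing.

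Anxa1 encodes annexin A1, a phospholipid-binding protein that mediates part of the anti-inflammatory action of glucocorticoids. The wild type arrays had 10.14, 10.28 and 10.15 and the Chrm1-/- arrays 9.89, 10.02 and 10.07. Each Chrm1-/- array lay below each wild type array, with the nearest values at 10.14 and 10.07 and SDs of 0.08 in wild type and 0.09 in Chrm1-/-. The difference was -0.20 ± 0.11 (SE), with an interval from -0.46 to 0.07. In limma the unadjusted p was 0.118 and the adjusted value 0.996. Without moderation of the variances the unadjusted p was 0.0485. Without wild type replicate 2, the array with high Hspa1a and Hspa1b, the difference was -0.15 with an unadjusted p of 0.282 in limma. Rgs2, which shortens signalling from G protein-coupled receptors, differed by 0.08 (interval -0.18 to 0.34). Its 2 clusters, the array's sets of probes for a gene, went opposite ways, at 0.08 in the one used and -0.13 in the other. Map3k6, a kinase of the MAP kinase cascade, differed by 0.08 (interval -0.48 to 0.65), with wild type replicate 3 at 7.31 and the other wild type arrays at 6.52 and 6.58. Errfi1, an inhibitor of the epidermal growth factor receptor, was below the limit for testing and ranged from 5.10 to 5.17 over the 6 arrays.

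The transcription factors held the one tested member with an unadjusted p under 0.05 in limma. Zbtb16 encodes PLZF, a zinc finger repressor that glucocorticoids induce in several tissues and that takes part in stem cell and lymphoid programmes. Its signals were 6.53, 6.83 and 6.82 in wild type and 7.53, 7.10 and 7.12 in Chrm1-/-. All 3 Chrm1-/- arrays lay above all 3 wild type arrays, and Chrm1-/- replicate 1 was the highest. The difference was 0.52 ± 0.17 (SE), with an interval from 0.12 to 0.93, that is from 1.09-fold to 1.90-fold. With the limit the unadjusted p was 0.0189, and after adjustment over all genes tested it was 0.996 in limma, so Zbtb16 did not pass. Its wild type mean, 6.73, was under the limit of 6.77, and its Chrm1-/- mean was 7.25. It was thus tested only through the group where it was higher, and nothing is read from that p. Without the limit, over all genes, the unadjusted p in limma was 0.0153 and the adjusted value 0.996. Without wild type replicate 1 the difference was 0.42 with an unadjusted p of 0.0603, and without Chrm1-/- replicate 1 it was 0.38 with an unadjusted p of 0.0431. Without wild type replicate 2, the array with high Hspa1a and Hspa1b, the difference was 0.58.

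Klf9 and Klf13 are related Krüppel-like factors. Klf9, induced by glucocorticoids in many cell types, had signals of 7.44, 7.59 and 7.49 in wild type and 7.49, 7.49 and 7.39 in Chrm1-/-. The groups overlapped, and the difference was -0.05 with an interval from -0.30 to 0.20. Klf13 differed by 0.25 (interval -0.13 to 0.64), with Chrm1-/- replicate 3 highest at 7.82. Without that array it was 0.12, and without Chrm1-/- replicate 1 it was 0.36. Nfil3, a leucine zipper factor of circadian output and lymphoid development, differed by 0.11 (interval -0.28 to 0.49), and Tle3, a corepressor of the Groucho family, by -0.14 (interval -0.53 to 0.26). Neither group of arrays separated for these genes.

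Cebpb, Cebpd and Bcl6 lay below the limit for testing. Cebpb and Cebpd are leucine zipper factors of myeloid and inflammatory gene programmes. Cebpb ranged from 6.07 to 6.84 in wild type and from 6.32 to 6.74 in Chrm1-/-, and Cebpd from 6.22 to 6.46 and from 6.06 to 6.52. The difference of Cebpb, 0.12, was 0.32 without wild type replicate 2 and -0.07 without wild type replicate 3. Bcl6, a repressor of lymphoid and inflammatory genes, had 7.03 on wild type replicate 3 and between 6.01 and 6.50 on the other 5 arrays. The difference of Bcl6, -0.09, was 0.20 without that array.

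Of the 9 genes that restrain growth or set fuel use, 3 were tested, and each of the 3 was higher in Chrm1-/- with an interval that spans 0. Txnip encodes a thioredoxin-binding protein that limits glucose uptake and supports HSC quiescence. It had signals of 11.26, 11.24 and 11.37 in wild type and 11.60, 11.27 and 11.37 in Chrm1-/-, a difference of 0.12 (interval -0.18 to 0.43). Chrm1-/- replicate 1 set it apart, and without that array the difference was 0.03. Pik3ip1, an inhibitor of phosphatidylinositol 3-kinase, had 7.93 on wild type replicate 1 and from 8.51 to 8.71 on the other 5 arrays. Its difference of 0.21 became -0.02 without wild type replicate 1. Glul encodes glutamine synthetase, a long-known glucocorticoid target in muscle, and differed by 0.06 (interval -0.19 to 0.31); its other cluster differed by -0.02.

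The 6 genes of this kind below the limit ranged in difference from -0.10 for Pdk4 to 0.17 for Arrdc2. Pdk4, a kinase that turns off pyruvate dehydrogenase in fasting, had 6.63 on wild type replicate 3 and from 6.04 to 6.20 elsewhere. Ddit4, which encodes the mTORC1 brake REDD1, had 6.45, 6.69 and 6.69 in wild type and 6.21, 6.65 and 6.99 in Chrm1-/-, a wider spread in Chrm1-/- around almost the same mean. Arrdc2, an arrestin-domain gene, had 7.05 on Chrm1-/- replicate 3 and from 6.62 to 6.76 on the other arrays. The liver genes Tat, encoding tyrosine aminotransferase, and Angptl4, encoding an inhibitor of lipoprotein lipase, differed by -0.02 and -0.03. Mfsd2a, a transporter of lysophospholipids, differed by -0.07.

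The metallothioneins Mt1 and Mt2, small metal-binding proteins induced by zinc, stress and glucocorticoids, varied far more between arrays than between genotypes. Mt1 had signals of 8.52, 8.71 and 8.70 in wild type and 9.24, 8.49 and 8.01 in Chrm1-/-. Mt2 had 7.25, 6.73 and 6.24 in wild type and 6.96, 6.51 and 8.04 in Chrm1-/-. Chrm1-/- replicate 3 was thus the lowest of the 6 arrays for Mt1 and the highest for Mt2, so the neighbouring genes did not rise and fall together. The SD of Mt1 was 0.11 in wild type and 0.62 in Chrm1-/-. The differences were -0.06 ± 0.31 (SE) for Mt1 and 0.43 ± 0.44 (SE) for Mt2, whose interval ran from -0.65 to 1.51, a rise of up to 2.84-fold at its upper end. Without Chrm1-/- replicate 3 the difference of Mt1 turned to 0.22, and Mt2 fell below the limit for testing, its other Chrm1-/- values of 6.96 and 6.51 lying within the wild type range. Without wild type replicate 3 the difference of Mt2 was 0.18, and without Chrm1-/- replicate 2 it was 0.76.

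**Figure D3:**
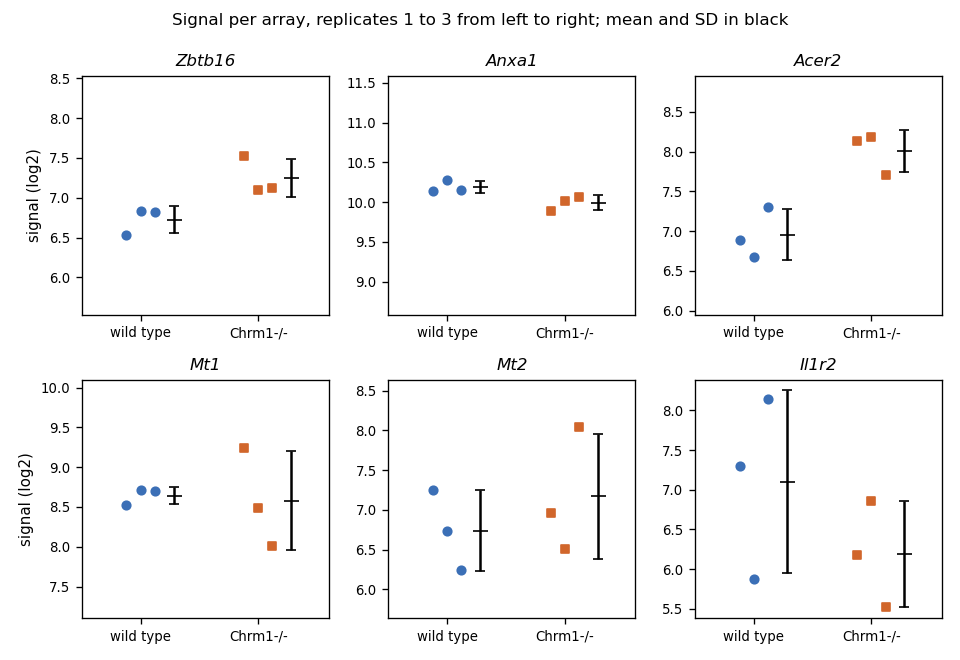
Log2 signal (vertical axis, at the same number of units in each panel) of 6 genes on the wild type arrays (circles) and Chrm1-/- arrays (squares), replicates 1 to 3 from left to right, with mean and SD of the 3 arrays in black. Zbtb16, Anxa1 and Acer2, a response gene outside the 32, separate by genotype, while Mt1, Mt2 and Il1r2 overlap. The genes were chosen with results of these data known.

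Among genes of the cell surface, matrix and cytoskeleton, Il1r2 had the widest range of the 32. It encodes the decoy receptor for interleukin-1, which glucocorticoids induce in myeloid cells. Its signals were 7.30, 5.87 and 8.14 in wild type and 6.18, 6.86 and 5.52 in Chrm1-/-. The groups overlapped through wild type replicate 2, and the mean difference was -0.92, below the limit for testing. Without wild type replicate 2 the gene entered the test, at -1.53. In limma its unadjusted p was then 0.0207 and its adjusted value 0.999, and the groups, which only that array had made overlap, lay apart. It passed the limit there only through the wild type values of 7.30 and 8.14, since the Chrm1-/- mean was 6.19. Nothing is therefore read from this p or this separation. Without Chrm1-/- replicate 3 it entered the test too, at -0.58 with an unadjusted p of 0.441. The difference was -0.40 without wild type replicate 3, below the limit again. Granulocyte markers, read beside it because neutrophils express Il1r2, were lower in 6 of 7 tested members, where 5381 of all 11094 tested genes were lower. Of all 16 on the array, 11 were lower, 4 higher and 1 equal. Their mean was 8.70, 8.74 and 8.88 on the wild type arrays and 8.75, 8.41 and 8.54 on the Chrm1-/- arrays, and their part in the result was not tested. The differences of the 7 ran from -0.44 for Ctsg to 0.01 for Cebpe, and 0 of the 16 members on the array had groups apart, beside 5.39% of all genes. An array has no true zero, so absence of a marker cannot be read from it.

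Tgm2, a transglutaminase that crosslinks proteins, had signals of 7.82, 8.21 and 7.66 in wild type and 7.45, 7.71 and 7.60 in Chrm1-/-. The groups overlapped by 1 array, with a difference of -0.31 (interval -0.73 to 0.11), and an unadjusted p of 0.119 in limma. The difference was -0.15 without wild type replicate 2, the highest array, and -0.43 without wild type replicate 3. Tns1, a tensin that links integrins to actin, had 9.27, 8.98 and 9.13 in wild type and 9.13, 9.13 and 9.11 in Chrm1-/-, and the interval of its difference ran from -0.28 to 0.27. Cd163, the macrophage receptor for haemoglobin bound to haptoglobin, lay between 6.37 and 6.55 on the 6 arrays and Fam107a, an actin-associated gene, between 5.38 and 5.67. Crispld2, a secreted protein gene, was 6.21, 6.42 and 6.59 in wild type and from 6.55 to 6.59 in Chrm1-/-. These 3 genes were below the limit for testing.

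Of 28 further glucocorticoid response genes on the array, 22 were tested. One, Acer2, had an unadjusted p under 0.05, which is 4.55% of them beside 2.99% of all tested genes, and 0 passed after adjustment in limma. The list was chosen with earlier results of these data known, so this share, which rests on 1 gene, is no independent result. Acer2, an alkaline ceramidase that releases sphingosine, had signals of 6.89, 6.67 and 7.30 in wild type and 8.13, 8.18 and 7.71 in Chrm1-/-. The groups lay apart, as did those of 5.79% of all tested genes, and the difference was 1.05 ± 0.21 (SE), with an interval from 0.54 to 1.57. Its unadjusted p was 0.00231 and its adjusted p 0.996 in limma. Without wild type replicate 2 the difference of Acer2 was 0.91. Foxo1, a forkhead factor of fasting and quiescence, differed by 0.33 and, without wild type replicate 2, by 0.50 with an unadjusted p of 0.0355 in limma. It differed by 0.14 without wild type replicate 3, with an unadjusted p of 0.374. Per1, a clock repressor with a fast hormone response, differed by 0.17, and Cdkn1a, encoding the cell cycle inhibitor p21, by -0.35. The 22 genes had 13 higher, 9 lower and a median difference of 0.03. Gadd45b, a stress-induced gene below the limit and named after its values were seen, had all 3 Chrm1-/- arrays, at 6.14, 6.30 and 6.14, below the wild type arrays, at 6.50, 6.36 and 6.50.

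The receptor and the proteins it works with were tested for 22 genes. Nr3c1, the glucocorticoid receptor gene, had signals of 9.90, 9.46 and 9.42 in wild type and 10.13, 9.23 and 9.82 in Chrm1-/-. Its groups overlapped, and the interval of the difference ran from -0.50 to 0.77. Of the 22 genes, 12 were higher, 8 lower and 2 equal, with a median of 0.01. Stip1, the co-chaperone that joins Hsp70 to Hsp90, was the one with an unadjusted p under 0.05, at -0.29 ± 0.12 (SE). That is 4.55% of the 22 genes, beside 2.99% of all tested genes, and Stip1 did not pass after adjustment in limma. Its signals were 11.26, 11.07 and 11.26 in wild type and 10.97, 10.97 and 10.77 in Chrm1-/-, with no overlap. Stip1 alone of the 22 had no overlap, again 4.55%, beside 5.79% of all tested genes. Its unadjusted p, 0.0468, went above the threshold on leaving out any array other than wild type replicate 2. The coactivators Crebbp and Ep300 differed by 0.20 and 0.13, and the chaperone Hspa4 by -0.10.

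Immediate early genes respond to many signals and to cell handling, and several of them are also glucocorticoid targets. Of 24 tested, 18 were higher and 6 lower in Chrm1-/-, with a median of 0.06, beside 5458 higher and 5381 lower of all 11094 tested genes. Of the 24, 2 had an unadjusted p under 0.05 in limma in opposite directions, 8.33% of the list beside 2.99% of all tested genes. Btg2, an antiproliferative gene, had 8.68, 9.34 and 8.44 in wild type and from 9.87 to 10.02 in Chrm1-/-, a difference of 1.14. Ier3, a regulator of survival, had 8.60, 8.44 and 8.80 in wild type and 7.60, 8.41 and 8.11 in Chrm1-/-, a difference of -0.57. Both separated by genotype, the only 2 of the 24 to do so, 8.33%, beside 5.79% of all tested genes. Ier3 was at -0.35 with an unadjusted p of 0.125 in limma without Chrm1-/- replicate 1. Without wild type replicate 2 the difference of Btg2 was 1.4, and 1 gene of the list had an unadjusted p under 0.05 in limma. Atf3 and Fosb differed by 0.39 and -0.27. The mean of the 24 ran from 7.69 to 7.85 over the wild type arrays and from 7.77 to 8.0 over the Chrm1-/- arrays, and its part in the result for the 17 genes was not tested. Jun had 9.37 on Chrm1-/- replicate 3, the array with the highest Mt2, and from 7.19 to 7.98 on the others.

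Markers of other cells were compared in the same fit. An unadjusted p under 0.05 was found for 1 of 15 tested HSC markers, 1 of 7 monocyte and macrophage markers and 1 of 8 megakaryocyte markers, beside 2.99% of all tested genes. They were Procr at -0.25, Cd68 at -1.07, with wild type replicate 3 highest at 10.25, and F2rl2 at 1.13. These genes do not stand for their lists. Of the tested HSC markers 7 were higher, 7 lower and 1 equal. Of the monocyte and macrophage markers 5 were higher and 2 lower, and of the megakaryocyte markers 2 were higher, 4 lower and 2 equal. An unadjusted p under 0.05 was found for 0 of 7 granulocyte, 0 of 10 erythroid, 0 of 2 mast cell, 0 of 2 B cell, 0 of 3 T and NK cell and 0 of 5 stromal and endothelial markers. After adjustment in limma none of any list passed. The median differences of these lists ran from -0.14 for granulocytes to 0.21 for stroma and endothelium. For the housekeeping genes that count was 0 of 11, with a median of 0.04.

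**Figure D4:**
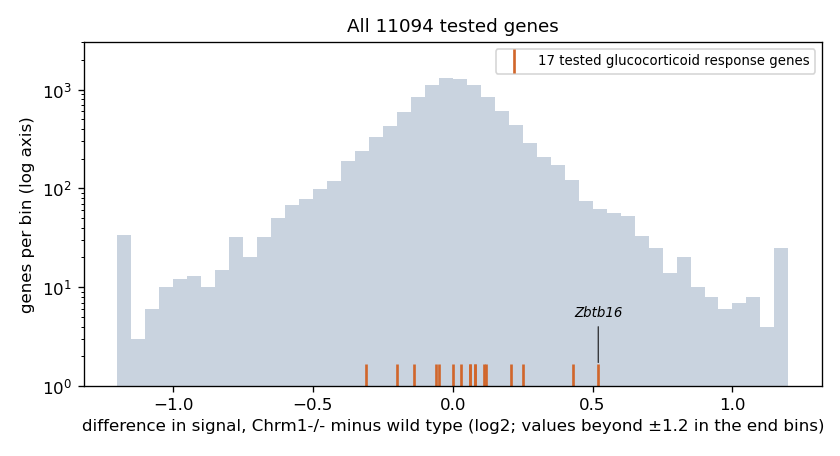
Histogram of the log2 difference, Chrm1-/- minus wild type, for all 11094 tested genes (vertical axis logarithmic, genes per bin; the end bins collect all values past the axis limits), with a tick for each of the 17 tested glucocorticoid response genes. The ticks run from -0.31 (Tgm2) to 0.52 (Zbtb16) inside the distribution of all tested genes, which runs from -2.73 to 3.30.

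Over single arrays, wild type replicate 1 gave the lowest value of the 6 for 11 of the 32 genes and wild type replicate 3 the highest for 9, each counted where 1 array alone held the extreme. The shares over all genes on the array were not counted, so nothing is read from these counts. Among the 17 tested genes, wild type replicate 1 was lowest for 5 and Chrm1-/- replicate 2 for 0, where these arrays were lowest for 16.4% and 12.8% of all genes tested. Wild type replicate 3 was highest for 3 of the 17 and for 18% of all genes tested. The median within-group SD was 0.19 for the 17 genes and 0.22 for all genes tested. For 4 of the 32 genes, Errfi1, Sgk1, Klf9 and Tns1, at least 3 arrays held exactly the same value to the deposited 2 decimals, 12.5% of them, as did 12.2% of all genes.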

How the data were processed

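HSC RNA from 3 wild type and 3 Chrm1-/- samples was hybridised to Affymetrix mouse gene ST arrays after NuGEN amplification, according to the design text. That text names Affymetrix TAC software as the authors' processing tool. Its version, and how probes were summarized and normalized, are not given in the sources. The authors' deposited values, taken as log2 signals because they run from 3.02 to 13.67 and no scale is named, were used unchanged. Of 41345 clusters, 23521 had 1 gene symbol, 1814 had several and 16010 had none; the latter kinds were left out. The cluster with the highest mean over 6 arrays stood for a gene. The number of arrays limits the precision.

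Chrm1-/- was compared with wild type in limma 3.58.1 (lmFit, eBayes; R 4.3.3). Tests were two-sided and adjusted by Benjamini-Hochberg over 11094 genes, with 95% intervals; the script was tested on simulated data. Python 3.11.15 and matplotlib 3.10.9 did the joins, motif search and plots. The genes and lists were chosen with earlier results of these data known. Named are all 32 genes, the 4 of smallest unadjusted p in each of the 3 further lists, with the values or range of each group for those called. Jun, Gadd45b, Ctsg, Cebpe, Il7r, Hsd11b1, Fbxo32, the heat shock genes and the called markers were named after their values were seen. Same-numbered arrays showed no shared deviation over genes (correlations of -0.03, 0.01 and -0.01), so replicate numbers were not taken as pairs. With 3 arrays per group this cannot show that the samples were unpaired. Alternatives covered the signal filter, normalization, clusters, moderation, array weights, a replicate block and leaving out each array.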

Additional observations from a re-analysis of the deposited data

How the results depend on the processing

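The 32 genes kept their place on the adjusted threshold, with 0 passing, under every alternative run. Of 628 single-gene values under alternatives, 618 kept their direction or moved by less than the spread between arrays, and 10, of tested genes, reversed. Without a filter, over all 22180 genes, the median of the 32 was 0, 567 genes had an unadjusted p under 0.05 and 1196 did not overlap; the further response list then had 2 genes under 0.05. With the filter at the 75th percentile the median, then only of the members that passed it, was 0.03, and the counts over genes were 169 and 353. Under that filter 0 of the 32 genes and 0 of the further response and receptor lists had an unadjusted p under 0.05. There 1 of the 32 did not overlap, and fewer genes are tested. Without moderation 1 gene passed the adjustment, Apmap, 2 of the 32 were under 0.05 and 1 immediate early gene; the trend with robust moderation left 1 immediate early gene. Quantile normalization and array weights left 0 receptor genes under 0.05, and array weights turned Fkbp5 to -0.03. The mean of all clusters turned Rgs2 to -0.02. At an unadjusted p under 0.01, or with at least 1.5-fold, 0 of the 32 remained. The promoter share was 10.3% for the palindrome with up to 2 mismatches. The causes were not tested.

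With the replicate block, 0 of the 32 and 0 receptor genes but 1 immediate early gene had an unadjusted p under 0.05, and 396 of all genes did; Zbtb16 had 0.0553. The labels do not say whether same-numbered samples belong together, and the correlations between them cannot decide it. The block changed no adjusted call.

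On leaving out 1 array, the genes past adjustment ran from 0 to 1 (Gdpd3 without wild type replicate 1, Snord49a without Chrm1-/- replicate 3), those with an unadjusted p under 0.05 from 337 to 521, and those not overlapping from 1458 to 1961. Of the members tested in each run 0 to 2 were under 0.05 and 2 to 5 did not overlap, with a median from -0.01 to 0.07. Over all 32 genes the median ran from -0.02 to 0.02. The further response list had 1 to 3 under 0.05, the most without wild type replicate 3 and 2 without wild type replicate 2, the receptor list 0 to 1 and the immediate early list 1 to 2. Among tested genes, differences that reversed ran from -0.01 to 0.13 for Tsc22d3, -0.05 to 0.13 for Fkbp5, -0.06 to 0.15 for Map3k6, -0.02 to 0.17 for Nfil3, -0.02 to 0.35 for Pik3ip1 and -0.39 to 0.22 for Mt1. Tns1, at 0, ran from -0.08 to 0.07. Of the genes too dim to test, Bcl6 ran from -0.31 to 0.20, Ddit4 from -0.18 to 0.21, Cebpb from -0.07 to 0.32, Pdk4 from -0.21 to 0.08, Cebpd from -0.18 to 0.05, Angptl4 from -0.11 to 0.07, Tat from -0.07 to 0.02 and Fam107a from -0.12 to 0.03, each across 0.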

Other observations

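Some response genes varied widely on single arrays in ways the genotype labels do not follow. Il7r, the interleukin-7 receptor of lymphoid cells and a glucocorticoid target in T cells, had signals of 8.13, 7.62 and 5.99 on the wild type arrays and 7.22, 7.17 and 7.25 on the Chrm1-/- arrays. The mean difference was -0.03, with an SD of 1.12 in wild type and 0.04 in Chrm1-/-. Hsd11b1, whose enzyme regenerates active glucocorticoid inside cells, had 6.37, 7.13 and 7.28 in wild type and 8.04, 6.94 and 6.90 in Chrm1-/-, so Chrm1-/- replicate 1 held the highest value. Fbxo32, a ubiquitin ligase gene of muscle wasting, was high on replicate 1 of both genotypes, at 7.73 and 7.80, and from 6.49 to 6.95 on the other 4 arrays.

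On wild type replicate 2 the signal of Hspa1b was 11.11 and of Hspa1a 8.72, while Hspa8, the constitutive gene of the same Hsp70 family, at 12.63, and Hsp90aa1, an Hsp90 gene, at 9.74, ranged by 0.21 and 0.19 over the 6 arrays. Dnajb1, a heat-inducible co-chaperone, had 9.38 there, 8.56 and 9.06 on the other wild type arrays, and 9.48, 8.85 and 9.10 in Chrm1-/-.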
